A study of Homo sapiens with 32 samples.

Results

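The ID proteins and the core feedback genes of bone morphogenetic protein (BMP) signalling were followed through knockdown of SMARCA2 in 2 lung cancer cell lines. They were ID1, ID2, ID3 and ID4, the inhibitory SMADs SMAD6 and SMAD7, the ligands BMP4 and BMP2, and the decoy receptor BAMBI. Members were chosen by name: every probe set annotated to 1 of these 9 symbols was taken, and the brightest probe set stood for its gene. These are 9 of the 19775 genes with a probe set on the array. They carried 18 probe sets, from 1 each for ID1, ID3, SMAD7, BMP4 and BAMBI up to 5 for ID4. One further probe set is annotated to ID2 together with its pseudogene and was not used. All 9 genes passed the filter on low signal, log2 over 5 on at least 3 of the 32 arrays, but ID4 and BAMBI passed it through A549 alone and BMP2 through H1299 alone, since only 2 of the 8 A549 arrays had BMP2 over log2 5.

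BMP ligands bind a pair of serine/threonine kinase receptors, which phosphorylate SMAD1, SMAD5 and SMAD9. These join SMAD4, enter the nucleus and switch on target genes, among which the ID genes are the classic ones. ID proteins lack a DNA-binding region. They capture the E proteins, basic helix-loop-helix (bHLH) partners of lineage factors, and so hold back differentiation. SMAD6 and SMAD7 are induced by the same signals and block the receptors. SMAD7 also blocks the related TGF-beta receptors, and BAMBI resembles a receptor without a working kinase.

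The 2 human lines were H1299 and A549, lung cancer cells known for their loss of SMARCA4. SMARCA4 and its paralog SMARCA2 each can be the motor of SWI/SNF, the complexes that slide and evict nucleosomes. Each culture carried a short hairpin RNA, either S2sh7, aimed at the ATPase domain sequence of SMARCA2, or shLuc, aimed at luciferase, which the cells do not make. Each also expressed a cDNA, which was the wild type form (WT), one mutated in the bromodomain (BRD), one with a dead ATPase (ATPdead), or GFP in its place. H1299 received forms of SMARCA2 and A549 forms of SMARCA4. The 16 groups were thus S2sh7 with WT, BRD, ATPdead or GFP and shLuc with the same 4, in each line. All were stable lines grown untreated, and the labels say neither whether each was a pool or 1 clone nor which promoter drove the cDNA. H1299 had 3 arrays in each of 8 groups, labelled biological replicates, and A549 had 1 in each of 8. Since separate cultures are not described, p-values measure the spread between these samples, which may be technical. The lines also differ in batch label, so levels were not tested between them. S2sh7 was the only hairpin aimed at SMARCA2, so knockdown here means S2sh7 against shLuc. Effects of this hairpin on other RNAs were not tested and cannot be told apart from those of losing SMARCA2.

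The promoters of 6 of the genes are shown for reference, and whether their sequence bears on the responses was not tested. Each run is the 250 bases before the start of transcription, 5′ to 3′ in the direction of the gene, from RefSeq on GRCh38.p14. Capitals mark CCAAT boxes (CCAAT or its complement ATTGG) and the GC-rich element GGCGCC that SMAD1 and SMAD5 are known to bind. For SMAD7 the first of 3 listed starts is shown.
ID1, chr20:31605039-31605288, plus strand: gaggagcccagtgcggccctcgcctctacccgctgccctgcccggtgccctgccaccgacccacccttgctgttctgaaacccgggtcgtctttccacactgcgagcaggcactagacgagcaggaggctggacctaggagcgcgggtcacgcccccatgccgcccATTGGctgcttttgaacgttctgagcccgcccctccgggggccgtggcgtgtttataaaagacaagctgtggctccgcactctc
ID2, chr2:8681806-8682055, plus strand: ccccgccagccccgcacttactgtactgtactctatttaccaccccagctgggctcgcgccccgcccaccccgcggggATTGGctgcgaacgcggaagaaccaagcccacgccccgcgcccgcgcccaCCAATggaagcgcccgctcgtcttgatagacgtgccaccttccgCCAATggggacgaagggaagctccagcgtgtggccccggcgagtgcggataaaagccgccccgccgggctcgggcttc
ID3, chr1:23559502-23559751, minus strand: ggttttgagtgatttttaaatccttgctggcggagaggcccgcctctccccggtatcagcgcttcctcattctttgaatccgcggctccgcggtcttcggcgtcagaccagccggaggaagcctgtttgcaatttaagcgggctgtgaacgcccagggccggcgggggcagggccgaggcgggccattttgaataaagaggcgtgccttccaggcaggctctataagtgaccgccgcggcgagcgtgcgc
ID4, chr6:19837120-19837369, plus strand: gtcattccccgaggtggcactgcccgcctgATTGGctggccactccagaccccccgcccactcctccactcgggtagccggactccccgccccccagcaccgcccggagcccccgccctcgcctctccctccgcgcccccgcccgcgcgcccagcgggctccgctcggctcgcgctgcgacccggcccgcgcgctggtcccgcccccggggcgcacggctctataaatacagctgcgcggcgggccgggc
SMAD7, chr18:48950966-48951215, minus strand: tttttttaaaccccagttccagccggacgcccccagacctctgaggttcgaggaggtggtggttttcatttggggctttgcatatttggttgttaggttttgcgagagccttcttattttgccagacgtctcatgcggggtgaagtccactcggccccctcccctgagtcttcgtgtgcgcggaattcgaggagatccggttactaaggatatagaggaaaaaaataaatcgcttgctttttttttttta
BAMBI, chr10:28677271-28677520, plus strand: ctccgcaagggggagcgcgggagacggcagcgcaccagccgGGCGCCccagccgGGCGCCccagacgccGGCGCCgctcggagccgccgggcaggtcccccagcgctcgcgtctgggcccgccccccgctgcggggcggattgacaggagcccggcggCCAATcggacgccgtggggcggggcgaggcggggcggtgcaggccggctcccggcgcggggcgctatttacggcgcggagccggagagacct
In all, 12 such windows were found for 8 of the 9 genes. The remaining gene is BMP2. CCAAT occurred 3 times before ID2 and once each before ID1, ID4 and BAMBI, and 32% of 35116 promoter windows in the same table held it. GGCGCC occurred 3 times before BAMBI, once in 1 BMP4 window and in 16.4% of all windows. The palindromic SMAD element GTCTAGAC, present in 0.182% of all windows, occurred before SMAD6. CAGACA, the SMAD-binding core with its flank, occurred in 1 BMP4 window and in 13.6% of all windows. TATAAA was found before ID1 and ID4 and in 1 SMAD7 window (10.7% of all windows), CAGCTG before ID2 and ID4 (14%), and CACGTG in 1 BMP4 window (6.34%). TGACGTCA (1.65%) and TGANTCA (6.57%) were found in no member's window. Every motif was searched on both strands, counted per window, and a match only says that these letters are there.

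Values are RMA intensities, summaries of each probe set's probes on a linear scale, and tests were run on their log2. Array medians were 26.4 to 27.3 in H1299 and 40.1 to 41.2 in A549, and the number of arrays limits the precision. A SMARCA2 probe set that the cDNAs did not raise averaged 26.95 to 31.9 in the 4 S2sh7 groups of H1299, against 68.8 to 79.6 in the shLuc groups, and 32.4 to 36.0 against 292 to 319 in A549. It does not show how strongly the SMARCA2 cDNAs were expressed in H1299, and their level is not given here. A SMARCA4 probe set in A549 read 99.8 to 240.2 with the 3 SMARCA4 cDNAs, against 23.6 and 31.3 with GFP. On every H1299 array 3 of 6 epithelial markers were over log2 5 (KRT7, KRT8, KRT18) and 3 were under it (KRT19, EPCAM, CDH1). On every A549 array 5 of 6 were over it. Of markers of other cell types, 0 of 4 leukocyte, 1 of 5 endothelial and 0 of 5 fibroblast markers were over log2 5 on every H1299 array, and 3 of 4, 3 of 5 and 2 of 5 on every A549 array. Log2 5 lies under the median of every A549 array, so these A549 counts do not show that the markers were expressed. In A549 the summed leukocyte markers were 146 to 193 in S2sh7 and 207 to 247 in shLuc cells, while the endothelial and fibroblast sums overlapped between hairpins in both lines. Of the leukocyte markers CD14 ranged most in A549, from log2 5.08 to 6.98, against 3.57 to 3.94 for PTPRC. The summed epithelial markers moved with the hairpin, at 6412 to 7626 in S2sh7 and 9334 to 10030 in shLuc cells of H1299, and at 19500 to 20150 and 28060 to 31960 in A549. The H1299 sums are mostly KRT18 (log2 12.38 to 12.97), and in A549 KRT7 stayed at log2 12.43 to 12.63. Of 6 alveolar markers 4 were over log2 5 on every H1299 array and 5 on every A549 array. None of them read over log2 6.50 in H1299 or 7.12 in A549, and these counts do not show that the markers were expressed. The alveolar sums overlapped between hairpins in H1299, and in A549 were 411 to 433 in S2sh7 and 437 to 455 in shLuc cells. The part of these markers in the results was not tested, and in bulk RNA fewer cells carrying a marker and less RNA per cell cannot be told apart.

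In H1299, SMARCA2 knockdown went with higher ID2 RNA and lower SMAD7 RNA whichever cDNA the cells expressed. S2sh7 over shLuc, the fold of ID2, which binds and inactivates E proteins, was 1.92 to 2.45 over the 4 cDNAs, and that of SMAD7, the feedback inhibitor of BMP and TGF-beta receptors, was 0.55 to 0.609. ID3 rose by a smaller amount with ATPdead and with GFP, and ID1 passed the test with none of the 4. Of the 9 genes, 3 passed with WT, 3 with BRD, 3 with ATPdead and 4 with GFP, where 26.5%, 23.7%, 28.4% and 29.7% of all tested genes passed. The genes were called at an adjusted p under 0.05 (limma, Benjamini-Hochberg over 14695 genes), and shares this close to the background set the 9 genes apart as a group in none of the 4. Their median log2 change was 0.01, 0.01, -0.04 and 0.06, against 0.02, 0.01, 0.02 and 0.01 for all tested genes.

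With WT SMARCA2, ID2 read 423, 393.5 and 415 in S2sh7 cells, against 184, 177 and 203 in shLuc cells. With BRD it read 391.5, 417 and 430.2 in S2sh7 cells, against 229, 199.6 and 219 in shLuc cells. Every S2sh7 reading lay well over every shLuc reading. With ATPdead it read 502.5, 488.5 and 503 in S2sh7 cells, against 221, 220.1 and 221 in shLuc cells. With GFP it read 528, 557 and 536 in S2sh7 cells, against 227, 208.5 and 226.5 in shLuc cells. Over the 12 arrays of each hairpin, log2 ID2 ran from 8.61 through a median of 8.84 to 9.12 with S2sh7, and from 7.47 through 7.78 to 7.84 with shLuc, with no overlap. The log2 change was 1.13 with WT, 0.94 with BRD, 1.17 with ATPdead and 1.29 with GFP, each with an SE of 0.05 (limma adjusted p = 1.20e-11, 1.56e-10, 3.44e-12 and 5.42e-13). The 2nd ID2 probe set gave 1.02, 0.80, 1.22 and 1.30, and called all 4 as well.

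ID3, another inhibitor of E proteins, lay much nearer to its control. With ATPdead it read 1732, 1714 and 1697 in S2sh7 cells, against 1355, 1350 and 1442 in shLuc cells. With GFP it read 1605, 1681 and 1741 in S2sh7 cells, against 1538, 1397 and 1448 in shLuc cells. The groups did not overlap in either case, and the log2 change was 0.31 and 0.20 (SE 0.05 each, limma adjusted p = 1.17e-04 and 0.00607). With WT the change was 0.10 and the groups overlapped, and with BRD it was 0.12 without overlap (limma adjusted p = 0.197 and 0.0964). ID1, the family member most often used as a readout of BMP signalling, had log2 changes of 0.01, 0.02, -0.04 and -0.07 with WT, BRD, ATPdead and GFP. Their 95% intervals together ran from -0.14 to 0.09, and the adjusted p was 0.181 to 0.875. Its intensity was 3190 to 3531 in S2sh7 cells and 3174 to 3608 in shLuc cells. ID4 stayed under log2 5 on all 24 H1299 arrays in each of its 5 probe sets, so its call with GFP (0.22 log2, adjusted p = 0.0343) was made at background. Leaving out 4 of the 6 GFP arrays in turn ended that call each time (adjusted p 0.0538 to 0.138).

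SMAD7 moved opposite to ID2. With WT it read 110, 89.5 and 112 in S2sh7 cells, against 161, 181 and 168 in shLuc cells. With BRD it read 85.6, 96.5 and 104 in S2sh7 cells, against 175, 161 and 176 in shLuc cells. The S2sh7 readings were the lower ones throughout. With ATPdead it read 94.1, 80.8 and 75.6 in S2sh7 cells, against 146.5, 141 and 139 in shLuc cells. With GFP it read 80.4, 84.2 and 87.9 in S2sh7 cells, against 159.5, 148 and 151 in shLuc cells. Log2 SMAD7 fell by 0.72 with WT, 0.84 with BRD, 0.77 with ATPdead and 0.86 with GFP (SE 0.09 each, limma adjusted p 2.21e-07 to 3.43e-06). Over 12 arrays of each hairpin its range was 6.24 to 6.81 with S2sh7 and 7.12 to 7.50 with shLuc. No other of the 9 genes was free of overlap over these 24 arrays. The share of all tested genes without overlap is not given here, so this does not set ID2 and SMAD7 apart from other genes.

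**Figure D1:**
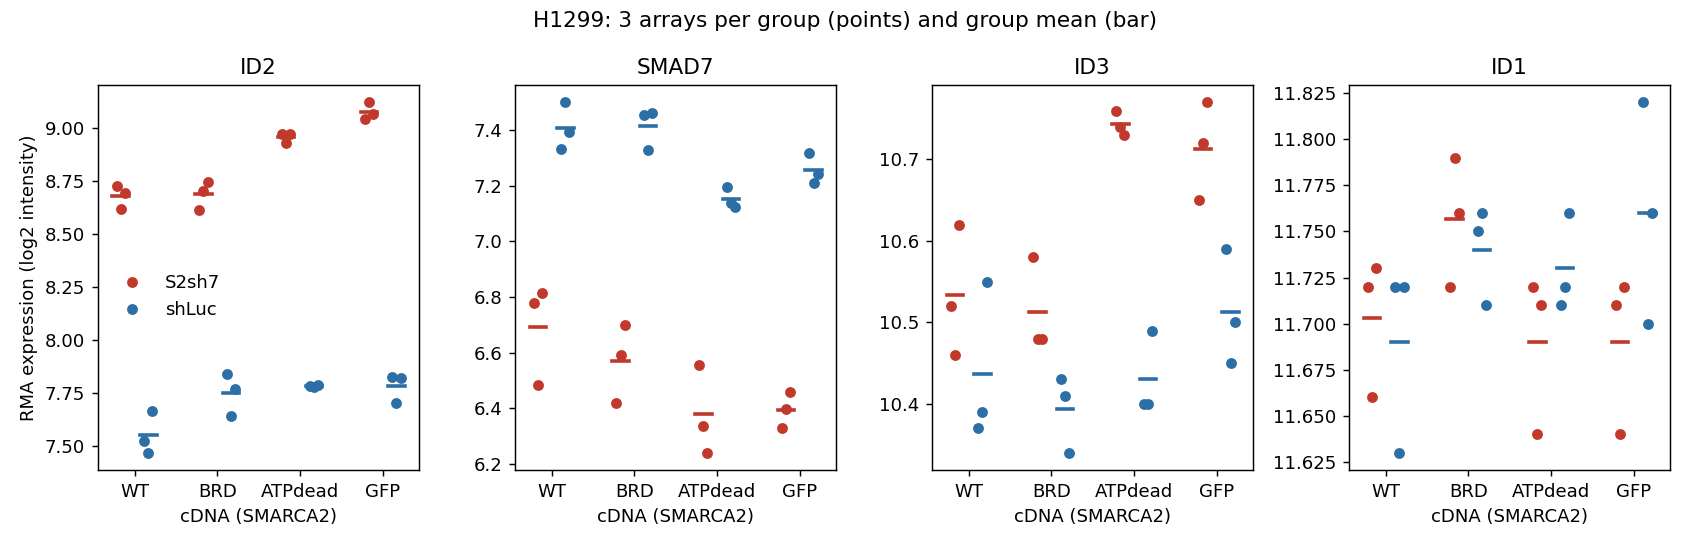
RMA expression (log2 intensity, vertical axis) of ID2, SMAD7, ID3 and ID1 in H1299 by SMARCA2 cDNA or GFP (horizontal axis), S2sh7 red and left, shLuc blue and right, 3 arrays per group as points and the group mean as a bar. ID2 lies between 8.61 and 9.12 in S2sh7 and between 7.47 and 7.84 in shLuc cells, SMAD7 between 6.24 and 6.81 and between 7.12 and 7.50, while the hairpins overlap for ID3 and ID1; each panel has its own scale, which does not start at 0.

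SMAD6, the inhibitory SMAD that acts mainly on BMP receptors, passed the test with WT alone. It read 53.9, 53.5 and 60.3 in S2sh7 cells, against 42.75, 46.7 and 47.7 in shLuc cells, a log2 change of 0.29 (SE 0.08, limma adjusted p = 0.00738). Its other 3 probe sets gave -0.18, -0.16 and -0.06 there and passed no test. They lay at or near background, the brightest of them being over log2 5 on 15 of the 24 H1299 arrays. SMAD6 changed by 0.01, 0.15 and 0.11 with BRD, ATPdead and GFP. BMP4, the ligand that drives the pathway in many embryonic tissues, stayed between 33.1 and 43.9 in S2sh7 and between 36.1 and 41.55 in shLuc cells, with changes of -0.08 to 0.06. These readings were near background (log2 5.05 to 5.46), where a change could be missed. BMP2, a ligand of the same receptors, lay near log2 5 too. With BRD it read 32.4, 31.5 and 31.5 in S2sh7 cells, against 39.55, 35.7 and 41.3 in shLuc cells. Its log2 fell by 0.29 there (SE 0.10, limma adjusted p = 0.0488), a call that ended when 5 of these 6 arrays were left out in turn (adjusted p 0.0819 to 0.163). BAMBI, which competes with receptors, was under log2 5 on all 24 arrays and passed no test, at 13.8 to 17 with S2sh7 and 15.5 to 20.5 with shLuc.

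**Figure D2:**
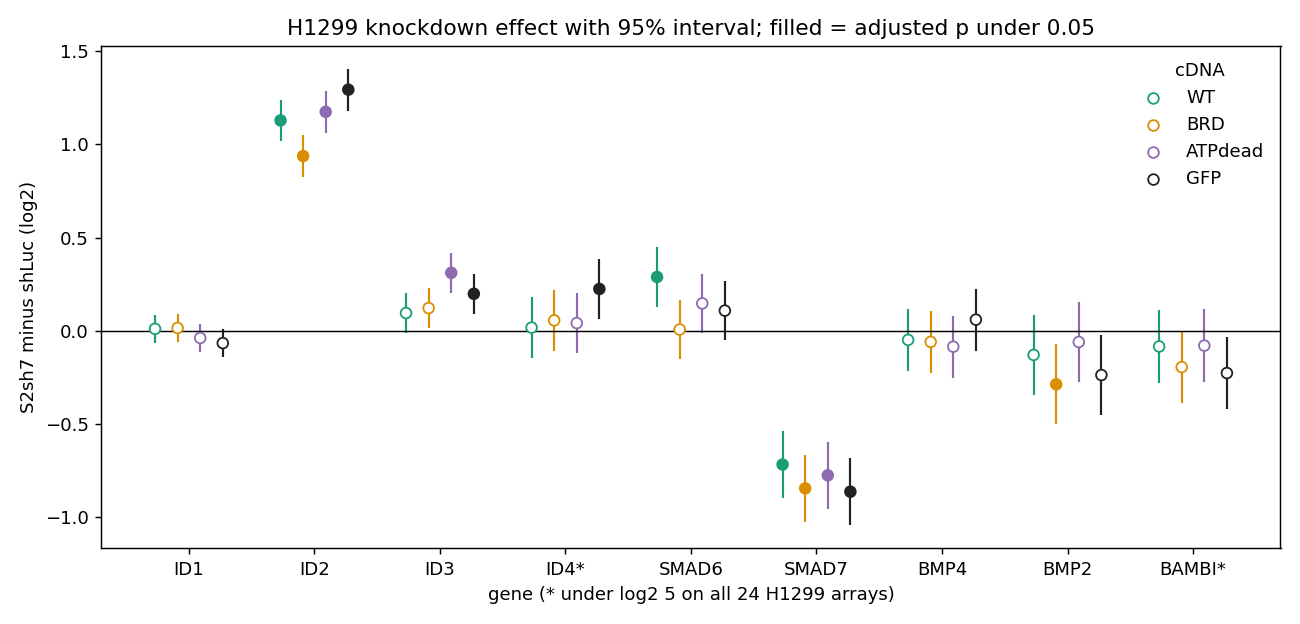
Difference in log2 expression, S2sh7 minus shLuc (vertical axis), of the 9 genes in H1299 (horizontal axis) for cells with WT, BRD or ATPdead SMARCA2 or with GFP; lines are 95% intervals and filled points passed an adjusted p of 0.05 (3 arrays a group). ID2 lies between 0.94 and 1.29 and SMAD7 between -0.86 and -0.72 for all 4, and the other 7 genes lie between -0.29 and 0.31.

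Whether a SMARCA2 cDNA altered these responses was asked by comparing the knockdown effect with each cDNA against that with GFP. The ID2 rise was smaller with BRD than with GFP, by 0.36 log2 (-0.36, SE 0.08, limma adjusted p = 0.0335). This was the only call among the 9 genes over WT, BRD and ATPdead, where 2.28%, 0.558% and 0.0612% of all genes passed. At an unadjusted p under 0.05 limma gave 1, 1 and 0 of the 9 genes, and the share of all genes at that threshold is not given here. The ID2 difference was -0.17 with WT and -0.12 with ATPdead (adjusted p = 0.307 and 0.572). The call with BRD was lost without 9 of its 12 arrays in turn, each GFP array of S2sh7 among them, with values of -0.38 to -0.31 and adjusted p up to 0.108, and in the 2nd probe set it was -0.50 (adjusted p = 0.189). For SMAD7 the differences were 0.15, 0.02 and 0.09, and none passed.

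Within S2sh7 cells the cDNAs were also set against each other. ID2 was lower with WT SMARCA2 than with GFP, by the readings given above, and the groups did not overlap (log2 -0.40, SE 0.05, limma adjusted p = 8.56e-05, 1 of 9 genes called, 5.06% of all genes). The 2nd ID2 probe set gave -0.32 (adjusted p = 0.0957). SMAD7 was higher with WT by 0.30 and ID3 lower by 0.18, without overlap, and both missed the threshold (adjusted p = 0.0521 and 0.0538). ATPdead against WT gave 2 calls among the 9 genes, where 3.02% of all genes passed. ID2 was higher with ATPdead by 0.28 (SE 0.05, adjusted p = 0.00562), and ID3 by 0.21 (SE 0.05, adjusted p = 0.0305), with readings of 1697 to 1732 against 1411 to 1570. Neither gene overlapped, but fitted on these arrays alone neither passed (adjusted p = 0.0779 and 0.193), and the 2nd ID2 probe set gave 0.34 (adjusted p = 0.106). The SMAD7 difference was -0.31, which missed the threshold (adjusted p = 0.0552), and its readings overlapped. ID3 was also lost without 5 of the 6 arrays in turn (adjusted p 0.0585 to 0.1425). BRD against WT gave no call among the 9 genes (0.0612% of all genes), nor did any of the 9 have an unadjusted p under 0.05. The ID2 difference was 0.01 with a 95% interval of -0.10 to 0.12.

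In shLuc cells, which kept their own SMARCA2, the cDNAs left most of the 9 genes near the GFP level. ID2 was lower with WT, at 177 to 203 against 208.5 to 227 with GFP (log2 -0.23, SE 0.05, limma adjusted p = 0.0257, 1 of 9 genes, 2.74% of all genes). The 2nd ID2 probe set gave -0.04 (adjusted p = 0.925), and leaving out replicate 1 or 3 of GFP or replicate 1 or 2 of WT ended the call (adjusted p 0.0992 to 0.141). None of the 9 genes was called with BRD or ATPdead (1.37% and 0.122% of all genes). At an unadjusted p under 0.05 limma gave 2 and 0 of the 9, without a share of all genes to set beside them. Differences to GFP with these 2 cDNAs ran from -0.14 to 0.20 over the 9 genes.

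In A549, where the cDNAs were of SMARCA4, knockdown of SMARCA2 went with higher ID2 and ID4 and lower SMAD7 over all 4 cDNAs. Of the 9 genes these 3 passed an additive fit on cDNA and hairpin, in which 21.1% of all genes passed. The fit has 1 array per group and 3 residual degrees of freedom, so its error is the disagreement of the 4 pairs. ID2 read 3482 in S2sh7 against 2704 in shLuc cells with WT, 3242 against 2715 with BRD, 4829 against 2686 with ATPdead and 4314 against 2942 with GFP. All 4 S2sh7 arrays lay over all 4 shLuc arrays, and the mean log2 change was 0.50 (SE 0.11, limma adjusted p = 0.0351). SMAD7 read 215 against 327 with WT, 166 against 295 with BRD, 201 against 322 with ATPdead and 150.4 against 305 with GFP, S2sh7 first. The pairs did not overlap, and the mean change was -0.78 (SE 0.08, adjusted p = 0.0125).

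ID4, the member of the family with no usable signal in H1299, was well over background in A549. By its brightest probe set it read 207 in S2sh7 against 117 in shLuc cells with WT, 165 against 117 with BRD, 302 against 112 with ATPdead and 416 against 131 with GFP. The S2sh7 readings were the higher in all 4 pairs (log2 1.10, SE 0.21, limma adjusted p = 0.0285). A 2nd ID4 probe set read 322 against 130, 346 against 133, 627 against 119 and 645 against 212.5 in the same order, a change of 1.67 (SE 0.19, adjusted p = 0.0136). The remaining pair over background, at or near background with shLuc, gave 2.21 and 1.77 (adjusted p = 0.0146 and 0.0203), and the 5th stayed under log2 5 on all 8 arrays. The calls of ID2, ID4 and SMAD7 were lost without the GFP pair and without the ATPdead pair (adjusted p 0.0511 to 0.126), and those of ID2 and ID4 also without the WT pair (0.0745 and 0.0669). The directions held without each pair.

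The remaining 6 genes were not called by the additive fit, and BAMBI, BMP4, BMP2 and ID3 disagreed between the pairs. BAMBI read 1504 in S2sh7 against 871 in shLuc cells with WT and 1729 against 915 with BRD. With ATPdead it read 494 against 1032, and with GFP 463 against 896. S2sh7 readings were thus the higher ones with the SMARCA4 forms whose ATPase is intact, and the lower ones with the ATPase dead form and with GFP. The log2 difference was 0.79 with WT and 0.92 with BRD, but -1.06 with ATPdead and -0.95 with GFP.

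**Figure D3:**
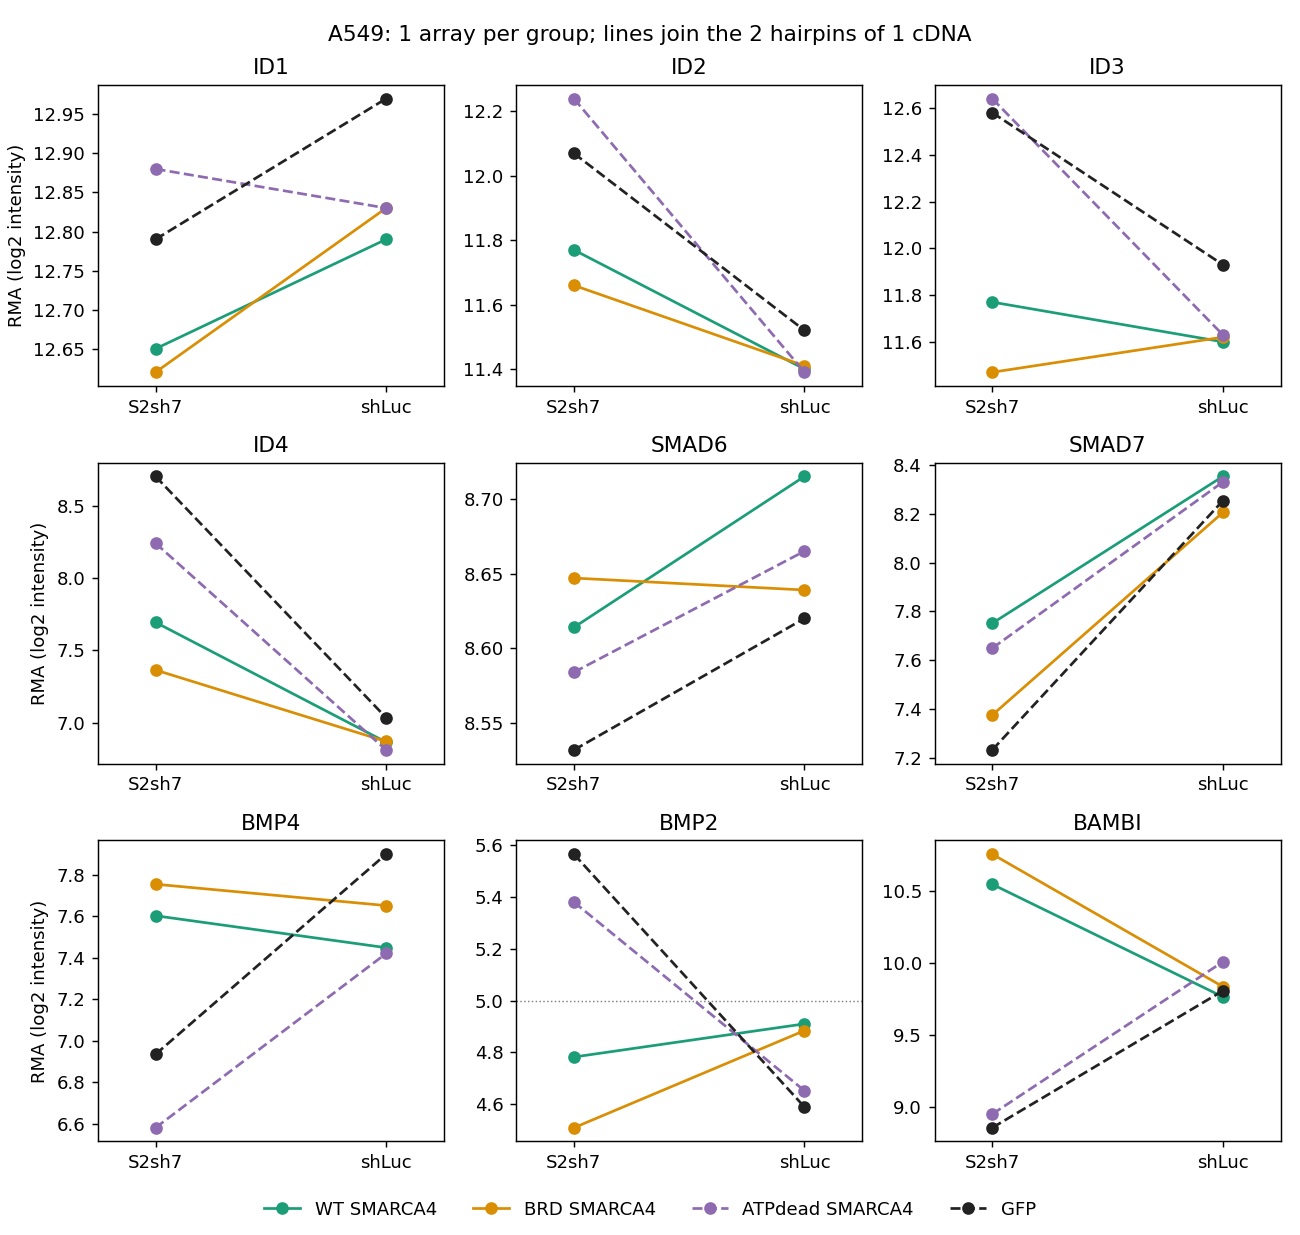
RMA expression (log2 intensity, vertical axis) of the 9 genes in A549 with S2sh7 (left) and shLuc (right), 1 array per point, lines joining the arrays of 1 cDNA, dashed for ATPdead and GFP, dotted grey at log2 5 for BMP2. BAMBI is higher in S2sh7 cells by 0.79 and 0.92 with WT and BRD and lower by 1.06 and 0.95 with ATPdead and GFP, while SMAD7 slopes the same way in all 4; each panel has its own scale, which does not start at 0.

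The knockdown effect with an intact SMARCA4 ATPase (WT and BRD) was also tested against the effect without one (ATPdead and GFP). The fit had 4 means and 4 residual degrees of freedom. The labels do not pair these cDNAs, and the error holds the differences between the 2 cDNAs of a class. Here 6 of the 9 genes passed, where 23.9% of all genes did. BAMBI gave the difference with the smallest adjusted p of the 9 genes (1.86 log2, SE 0.13, limma adjusted p = 0.000137). BMP4 differed by 1.03 (SE 0.24, adjusted p = 0.0187). Negative differences were found for ID4 (-0.89, SE 0.23, adjusted p = 0.0273), ID3 (-0.82, SE 0.17, adjusted p = 0.0117) and ID2 (-0.39, SE 0.11, adjusted p = 0.039). BMP2 was called as well (-1.10, SE 0.14, adjusted p = 0.00129), but 6 of its 8 readings were under log2 5, so the size of that difference rests on background readings. ID1, SMAD6 and SMAD7 did not pass, with differences of -0.11 (95% interval -0.34 to 0.12), 0.04 (-0.15 to 0.23) and 0.14 (-0.38 to 0.65). BAMBI and BMP2 stayed called without each pair in turn. The call ended for BMP4 without the WT or BRD pair, for ID3 without the BRD or ATPdead pair, for ID2 without the WT, BRD or ATPdead pair, and for ID4 without the WT, BRD or GFP pair (adjusted p 0.0592 to 0.225). The 2nd ID4 probe set gave -0.65 (adjusted p = 0.178). Over all alternatives run, other probe sets included, the difference was -1.16 to -0.65 for ID4 and -0.54 to -0.24 for ID2. Of these alternatives 6 of 15 ended the ID4 call and 4 of 13 the ID2 call.

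ID3 read 3485 in S2sh7 against 3094 in shLuc cells with WT and 2828 against 3145 with BRD. It read 6383 against 3164 with ATPdead and 6105 against 3905 with GFP, so that it was clearly higher in S2sh7 cells where no intact SMARCA4 ATPase was expressed. BMP4 read 194.5 against 175 with WT and 216 against 201 with BRD, but 95.7 against 171 with ATPdead and 122 against 239 with GFP. BMP2 read 27.5 against 30.1 with WT and 22.8 against 29.5 with BRD, and 41.6 against 25.1 with ATPdead and 47.3 against 24.1 with GFP. BMP2 was over log2 5 on those last 2 S2sh7 arrays alone, and even these readings lay near the A549 array medians of 40.1 to 41.2. All its A549 readings were thus at or near background, and the sizes of its A549 changes rest on them. Without an intact SMARCA4 ATPase, S2sh7 readings were thus the lower ones for BMP4 and the higher ones for BMP2.

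The knockdown was also split by class, in contrasts added after seeing the data. Of the 9 genes, 7 were called with ATPdead or GFP (49.8% of all genes) and 4 with WT or BRD (21.3%). Without an intact ATPase, ID2, ID3, ID4 and BMP2 rose by 0.70, 0.83, 1.55 and 0.85 log2, and SMAD7, BMP4 and BAMBI fell by 0.85, 0.90 and 1.01 (limma adjusted p 6.82e-05 to 0.00293). With one, ID2, ID4 and BAMBI rose by 0.31, 0.66 and 0.85 and SMAD7 fell by 0.72 (adjusted p 0.00107 to 0.0279). ID3 changed by 0.01 with an intact ATPase, with a 95% interval of -0.27 to 0.29. ID1 and SMAD6 passed in neither class.

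SMARCA4 itself was read in the same way, WT and BRD against ATPdead and GFP. Averaged over both hairpins, the additive fit called none of the 9 genes and none of all 14695 (0%), with 1 of 9 and 1714 of all genes at an unadjusted p under 0.05. Among S2sh7 arrays alone, 6 of the 9 genes were called, where 38.7% of all genes were. BAMBI and BMP4 were higher with an intact ATPase by 1.75 and 0.92, and ID2, ID3, ID4 and BMP2 lower by 0.44, 0.99, 0.94 and 0.83 (log2, adjusted p 1.12e-05 to 0.00383). Among shLuc arrays alone none was called (0% of all genes), and 1 of 9 had an unadjusted p under 0.05. The share of all genes at that unadjusted threshold is not given here.

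**Figure D4:**
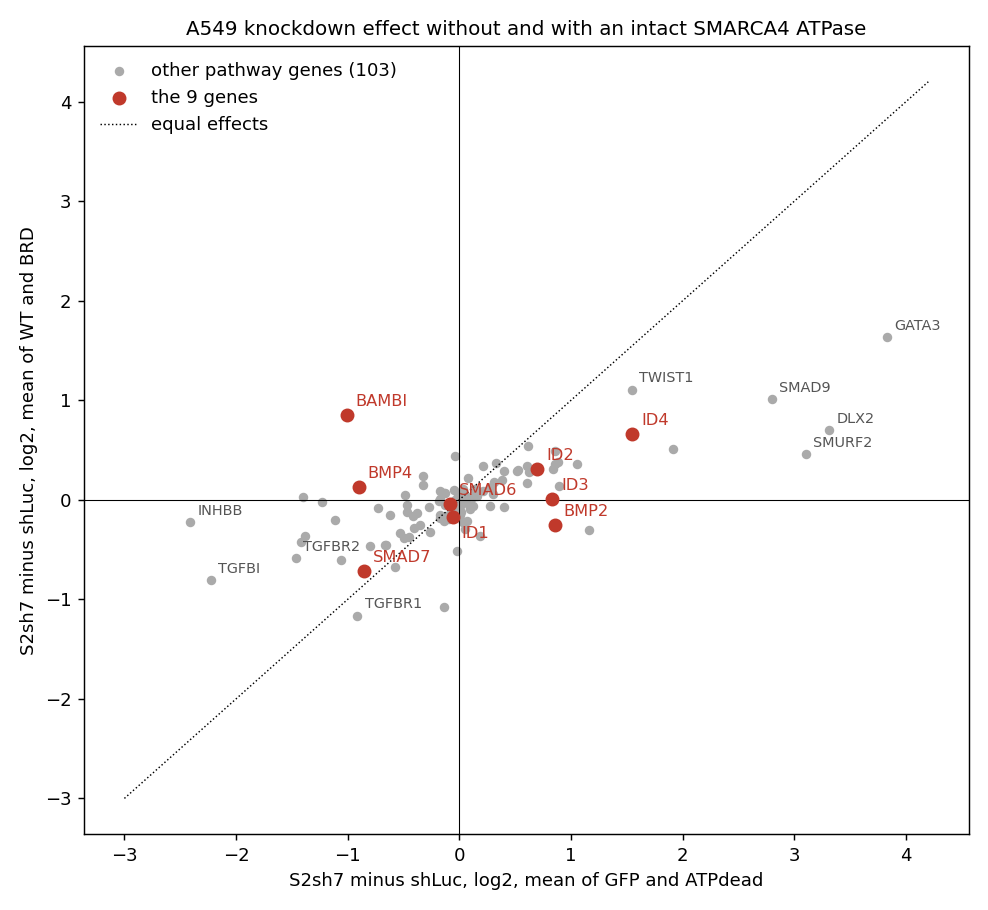
Knockdown effect (S2sh7 minus shLuc, log2) in A549 with an intact SMARCA4 ATPase (vertical axis, mean of WT and BRD) against the effect without one (horizontal axis, mean of ATPdead and GFP) for the 9 genes in red and 103 other pathway genes in grey; the dotted line marks equal effects. SMAD7 (-0.85 and -0.72) lies near the line, BAMBI (-1.01 and 0.85) lies on the other side of 0, and ID3 and BMP4 lie near 0 on the vertical axis alone.

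The rest of the pathway was followed through 8 lists of ligands, receptors, SMADs, antagonists, modulators, targets and bHLH factors, in all 135 genes of which 103 were tested. In H1299 with GFP, 16 rose, 24 fell and 63 did not pass (median change 0.04, against 0.01 for all genes), where 29.7% of all tested genes passed. Among 11 TGF-beta targets 2 rose and 5 fell: TGFBI, an adhesion protein of the matrix, fell by 1.36, KLF10 by 0.75 and LTBP2 by 0.55, while CCN2 rose by 0.23 (log2, limma adjusted p 2.62e-16 to 0.00214). The repressor SNAI2 was called lower too, at a mean log2 of 4.00 in S2sh7 and 5.05 in shLuc cells, which is at background in S2sh7 cells. Among 14 other BMP targets 5 rose and 3 fell, with HES1 0.29, TBX3 0.22 and TBX2 0.21 higher and MSX1 and HEY1 lower by 0.75 and 0.69. TBX3 lay near background in H1299, at log2 4.985 to 5.422. Of 16 ligands 1 rose and 2 fell, and BMP6 was the one that rose (0.80, adjusted p = 4.86e-06). BMP6 rose in the other 3 cDNA groups too, by 0.52 with WT, 0.67 with BRD and 1.02 with ATPdead. Of 16 receptors and co-receptors 2 rose, RGMB by 0.26 and the type II receptor BMPR2 by 0.26, and 2 fell. Of 12 extracellular antagonists 3 fell, among them FSTL1 by 0.89, and none rose. Of 6 SMAD transducers 2 fell and none rose, of 16 intracellular modulators 4 rose and 4 fell, and of 12 bHLH factors 2 rose and 3 fell. In the last list the E protein TCF4, a binding partner of ID proteins, rose by 0.25 and BHLHE41 fell by 0.60.

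With the SMARCA2 cDNAs in H1299 the count was 9 higher and 21 lower with WT, 9 and 20 with BRD, and 15 and 23 with ATPdead, of 103 genes each, where 26.5%, 23.7% and 28.4% of all genes passed. The knockdown effect differed from that with GFP for 4 of the 103 genes with WT (2.28% of all genes). TGFBI and SMAD3, a transducer of TGF-beta, gave 0.54 and 0.22, and CCN2 and TCF4 gave -0.41 and -0.32 (limma adjusted p 2.96e-06 to 0.0274). With BRD it differed for TGFBI alone (0.29, adjusted p = 0.00406, 0.558% of all genes), and with ATPdead for none (0.0612%). In S2sh7 cells TGFBI was higher with WT than with GFP by 0.55 and lower with ATPdead than with WT by 0.52, and FSTL1 by 0.58 and 0.38.

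In A549 over all 4 cDNAs, 17 of the 103 genes rose and 15 fell, where 21.1% of all genes passed. GATA3, a transcription factor and BMP target, rose by 2.73 log2, the bHLH factor TWIST1 by 1.33, ANGPTL4, a TGF-beta target, by 1.21, NBL1, a BMP antagonist, by 0.70, TBX2 by 0.67, BMPR2 by 0.63 and the corepressor TGIF2 by 0.61. TGFBI fell by 1.51, the receptors TGFBR1, TGFBR2 and TGFBR3 by 1.04, 1.02 and 0.56, HES1 by 0.92, the ligand BMP8B by 0.83, and JUNB and the BMP-binding TWSG1 by 0.63 each (limma adjusted p 0.00839 to 0.0489). SMAD9, a transducer of BMP signals, was called higher, but all 4 shLuc arrays and the S2sh7 arrays with WT and BRD were under log2 5. It read log2 6.83 with ATPdead and 6.48 with GFP in S2sh7 cells, against 3.76 and 3.95 in shLuc cells. HES1 thus moved opposite to its rise in H1299, while TGFBI and BMPR2 moved the same way. Without an intact SMARCA4 ATPase 27 rose and 30 fell, against 15 and 16 with one, where 49.8% and 21.3% of all genes passed. The difference itself passed for 34 of the 103 genes, 17 in each direction, where 23.9% of all genes passed. It was 2.19 for the activin subunit INHBB, 1.43 for GDF15, 1.42 for TGFBI and 1.21 for PMEPA1, and -2.65 for SMURF2, a ubiquitin ligase of SMADs and receptors, and -2.19 for GATA3 (adjusted p 3.27e-05 to 0.0192). DLX2 and SMAD9 were called lower as well, but for each 6 of the 8 A549 readings were under log2 5. DLX2 read log2 7.22 with ATPdead and 7.65 with GFP in S2sh7 cells, against 4.25 and 4.00 in shLuc cells. SMURF2 averaged log2 11.3 in S2sh7 against 8.21 in shLuc cells with ATPdead or GFP. TWIST1 and TGFBR1 changed in all 4 pairs by similar amounts, 1.03 to 1.63 and -1.19 to -0.835.

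Across the 16 group means, each line centred on its own mean, the tested genes most like ID2 by Pearson's r were IFT57 (0.977), RNF130 (0.968) and CRH (0.967). Those most like SMAD7 were LOXL2 (0.973), NUPR1 (0.967) and TPM1 (0.959), and in both sets the r within each line was over 0.9. For ID3 they were WDR45, NDUFA12 and TPM2 (0.968 each), and for ID4 SERTAD1 (0.986), AKIRIN1 (0.985) and HPS1 (0.982). For BMP4 they were ANK3, CFHR4 and KRT19 (0.960, 0.957 and 0.954), and for BMP2 CYP1A1, BICD2 and PPM1F (0.962, 0.955 and 0.948). For BAMBI they were APOBEC3B, RAB15 and KRT222 (0.974, 0.971 and 0.969). For ID4, BMP4 and BAMBI the r within H1299 ran from -0.37 to 0.72, and within A549 from 0.960 to 0.990. SMAD6 and ID1 had the weaker matches, with TMEM53, PLD3 and WASHC5 at 0.818 to 0.837 and SDHAF1, FAM229B and CERS2 at 0.868 to 0.873. For ID1 these were 0.007 to 0.481 within H1299 and 0.889 to 0.933 within A549. All these genes were picked on the same group means, so an r within a line is no separate check of likeness.

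Between the 9 genes, ID2 and SMAD7 ran opposite over the 8 group means of each line, with an r of -0.99 in H1299 and -0.78 in A549. ID2 and ID3 ran together (0.86 and 0.88), and in A549 ID2 and ID4 did (0.95). ID1 followed ID2 in neither line (-0.37 and -0.01). In A549 BAMBI ran with BMP4 (0.79) and against BMP2 (-0.88) and ID3 (-0.86). The group means share hairpins and cDNAs and are set by few independent contrasts, so these r are descriptions.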

How the data were processed

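RNA was measured on HG-U133 Plus 2.0 arrays, 24 of H1299 and 8 of A549. The deposited table holds 1 RMA intensity per probe set and array on a linear scale, made by the authors with RMA, per the submitters' processing notes, which also name limma. Versions and genome build are not given in the sources used here. Log2 of the deposited intensity was taken with no pseudocount. The design had assumed log2 values.

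Of 54675 probe sets, 41097 name 1 gene, 1801 several and 11777 none. The brightest of a gene's probe sets by mean log2 stood for it, and 14695 of 19775 genes with log2 over 5 on at least 3 of the 32 arrays were tested. Groups came from the labels. limma 3.58.1 in R 4.3.3 (lmFit, eBayes) fitted 8 group means in H1299 with 16 residual degrees of freedom, and in A549 an additive model of cDNA and hairpin (3) and 4 means by hairpin and intact SMARCA4 ATPase (4). p-values were two-sided and adjusted by Benjamini-Hochberg over all genes, and calls were made under 0.05. The A549 comparisons within a class of cDNA or within 1 hairpin were added after seeing the data. Replicate arrays correlated at 0.9976 to 0.9988. Over 84 pairs of H1299 arrays with the same replicate number in different groups, deviations from the group means correlated between -0.285 and 0.281, so the numbers did not pair the arrays. The fits were also run on simulated data, with shifts added to independent noise of each gene's fitted spread. The outcome is not given here. Such noise cannot show how the A549 fits deal with real differences between cDNAs.

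All 9 genes are named. From the pathway lists, called genes whose groups do not overlap (for knockdown over A549, with the same sign in all 4 pairs) were taken by largest change, up to 8 per direction for knockdown with GFP and over A549 and up to 4 elsewhere, where the text names part of them. Overlap and sign were not asked of differences between effects, and likeness names 3 genes per member. The members and lists were chosen with earlier results of these data known. Alternatives covered the probe set, the filter, scaling, pseudocount, variance model, array weights, samples fitted and each replicate left out.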

Additional observations from a re-analysis of the deposited data

Results flagged for a closer look

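The knockdown effect differed between cDNAs in 7 of 36 tests of the difference itself, made on the 9 genes over 4 comparisons (limma, Benjamini-Hochberg over all genes). Of these calls 6 came from the A549 comparison, where 23.9% of all genes passed, and 1 from those of BRD, WT and ATPdead with GFP in H1299, where 0.558%, 2.28% and 0.0612% passed. In H1299 it concerned ID2 alone, whose rise with S2sh7 was smaller with BRD than with GFP (-0.36, adjusted p = 0.0335). In A549, the effect with an intact SMARCA4 ATPase minus that without one was 1.86 for BAMBI, 1.03 for BMP4, -0.39 for ID2, -0.82 for ID3, -0.89 for ID4 and -1.10 for BMP2, the last with 6 of 8 readings under log2 5. For BAMBI the effect itself had opposite signs, being higher with S2sh7 in both pairs with an intact ATPase and lower in both pairs without one. Each A549 value rests on 1 array per group.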

How the results depend on the processing

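ID2 and SMAD7 kept their direction and call in all 4 H1299 knockdown comparisons under every alternative run. So did ID3 with GFP and ATPdead, and BAMBI in the A549 difference between cDNA classes. There BMP2 kept its call in the 9 alternatives that tested it, against 12 for BAMBI. BMP2 was not tested with a minimum log2 of 6, nor with the line's own filter, since only 2 of the 8 A549 arrays had it over log2 5. Among single-gene values, 2355 stayed on their side of the threshold in the same direction, 67 lost and 41 gained a call, and 130 values that were never called changed sign. SMAD6 with WT in H1299 turned to -0.028 as the mean of its probe sets and to -0.18, -0.16 and -0.062 in the other 3. These 3 lie at or near background in H1299. BAMBI in A549 turned to 0.85 within the WT and BRD arrays.

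Of the 9 genes, the 1 call for the BRD difference in H1299 became 0 with the mean of probe sets, with no filter and with only the arrays compared. S2sh7 WT against GFP (1) became 2 with the mean of probe sets, and 3 with centring, a pseudocount of 16, a minimum log2 of 6, a further round of quantile normalization, trended and robust variances, or the line's own filter. shLuc WT against GFP (1) became 0 with the mean of probe sets and with only the arrays compared, and S2sh7 ATPdead against WT (2) became 0 with only the arrays compared. Over A549, knockdown (3) gave 7 within GFP and ATPdead arrays, and intact SMARCA4 (0) gave 6 within S2sh7 arrays. Leaving out 1 array or pair at a time gave 3 to 4 calls for knockdown with GFP and with WT, 2 to 3 with BRD, 3 with ATPdead, 0 to 1 for the BRD difference, for shLuc WT and for shLuc BRD against GFP, 1 to 2 for S2sh7 WT against GFP and ATPdead against WT, 0 to 3 for A549 knockdown and 2 to 5 for its difference between classes. With the replicate block the counts were unchanged except for knockdown with BRD, which fell to 2 as BMP2 gave -0.29 (adjusted p = 0.0673); the numbers do not pair the arrays, and 9 of 24 arrays correlated best with their own number.

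Over all genes, 81 of the counts run under alternatives moved by over 1.5 times, mostly on fewer arrays: with only the arrays compared, knockdown with BRD called 2043 against 3486 genes, S2sh7 WT against GFP 117 against 743, S2sh7 ATPdead against WT 23 against 444, and A549 knockdown called 8 genes without the ATPdead pair, against 3098 with all pairs. Centring changed the share of higher calls to 66.3% from 45.9% for knockdown with GFP, to 63.8% from 46.6% with BRD, to 41.4% from 80% for the WT difference, to 40.7% from 66.4% for S2sh7 WT against GFP, to 38.8% from 53.4% for S2sh7 ATPdead against WT, and to 57.3% from 33.7% for shLuc WT against GFP. The cause was not tested. Signals under log2 5, as for ID4 and BAMBI in H1299 and BMP2 in most A549 arrays, are at background.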
